A study of Mus musculus with 15 samples.

Results

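The mRNAs of 10 regulators of the G1 phase of the cell cycle were followed in the mouse mammary carcinoma line E0771. They were the D cyclins Ccnd1, Ccnd2 and Ccnd3, the E cyclins Ccne1 and Ccne2, the kinases Cdk4 and Cdk6, and the kinase inhibitors Cdkn1a, Cdkn1b and Cdkn2c. They were listed by gene symbol, with earlier results of these data known, and make up 10 of the 55571 gene rows of the count table. Total RNA from 15 libraries was sequenced in 5 groups of 3, with no T cells in the cultures. The groups carried an empty vector (Vector), wild-type Malt1 (Malt1_WT), a Malt1 mutant labelled PD (Malt1_PD), or the mutants Malt1_V87R and Malt1_L88D. The count columns of the Malt1_PD group carry the name of a cysteine substitution, and the labels do not spell the abbreviation out. Malt1 encodes a paracaspase that acts as a protease and as a signalling scaffold. All 5 groups share the E0771 background and its own Malt1 gene, and the labels state neither the promoter of the constructs nor whether a group is a pool or a clone of cells. Nor do they tell whether replicates were grown separately, so each p-value rests on the spread between libraries, which may be technical.

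Cells in G1 commit to division through cyclin-dependent kinases. D cyclins, induced by growth factor signals, bind CDK4 and CDK6 and start the phosphorylation of the retinoblastoma protein, which releases E2F factors. E2F factors then switch on E cyclins, and cyclin E with CDK2 completes the step into S phase. INK4 inhibitors such as the product of Cdkn2c block CDK4 and CDK6, while the CIP/KIP inhibitors encoded by Cdkn1a and Cdkn1b act mainly on cyclin E and CDK2 complexes, and Cdkn1a is a known target of p53. Much of this control acts on proteins, by degradation and phosphorylation, and mRNA levels do not measure it.

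Library totals ran from 15471746 to 21458457 counts, and the 10 genes had between 429 and 17322 counts in any library. Counting error weighs more for the genes with fewer counts, such as Cdkn2c, which had the 429 in Malt1_WT. Replicates were not equally alike, with a chi-square per degree of freedom between the counts of 2 libraries of a group of 2.01 to 9.95. Malt1_PD replicate 2 gave 9.95 against replicate 1 and 6.83 against replicate 3, while replicates 1 and 3 gave 2.74. Vector replicates 1 and 2 gave 7.94. Malt1 mRNA averaged 28.2 ± 1.92 CPM (counts scaled to the TMM-adjusted library total; SD, n = 3) in Vector, 202 ± 7.97 in Malt1_WT, 250.1 ± 8.87 in Malt1_PD, 279.8 ± 1.35 for V87R and 252 ± 6.74 for L88D, in keeping with the labels. Of 8 epithelial markers, Epcam and Krt8 passed the count filter, Krt8 with group means of 89.7 to 117 CPM, and Krt18, Krt19, Krt7, Cdh1, Cldn4 and Esrp1 were each below 0.5 CPM. Of 8 T cell and NK cell markers, Cd2 and Nkg7 had 0 counts in all 15 libraries. Cd3d, Cd3e, Cd3g, Cd4 and Cd8a had at most 7 counts in a library. Cd247 passed the count filter, with group means of 2.79 CPM in Malt1_PD to 4.22 in Malt1_L88D, and was called lower in Malt1_PD than in Vector.

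Malt1_WT and Malt1_PD cells had a changed set of G1 regulators, while Malt1_V87R and Malt1_L88D cells stayed close to Vector. Cdkn1a rose 3.68-fold in Malt1_WT and 2.98-fold in Malt1_PD, and Ccnd2 rose 1.57-fold and 1.35-fold. Cdkn2c fell 2.49-fold and 1.56-fold, and Ccnd1, Ccnd3, Ccne1 and Cdk4 also fell in both. With edgeR and Benjamini-Hochberg adjustment over 14571 genes, 7 of the 10 genes passed an adjusted p of 0.05 in Malt1_WT against Vector, 2 up and 5 down. In that comparison 54.9% of all genes tested passed, 27.2% upward and 27.7% downward, so a member passing was not unusual. In Malt1_PD against Vector 9 of 10 passed, 2 up and 7 down, where 44.8% of all genes passed, 22.8% upward and 22% downward. Ccnd2 and Cdkn1a were the 2 that passed in Malt1_V87R against Vector, both upward, where 11.7% of all genes passed, 7.01% upward and 4.7% downward. The same pair passed upward in Malt1_L88D against Vector, where 17.4% of all genes passed, 8.96% upward and 8.43% downward. Without Vector replicate 1 the calls over all genes in Malt1_L88D against Vector dropped from 1306 up and 1228 down to 972 and 573. Without Malt1_V87R replicate 2 those in Malt1_V87R against Vector dropped from 1021 up and 685 down to 773 and 357. The median log2 change of the 10 was -0.19 in Malt1_WT and -0.32 in Malt1_PD, against -0.01 and 0.00 over all genes tested.

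**Figure D1:**
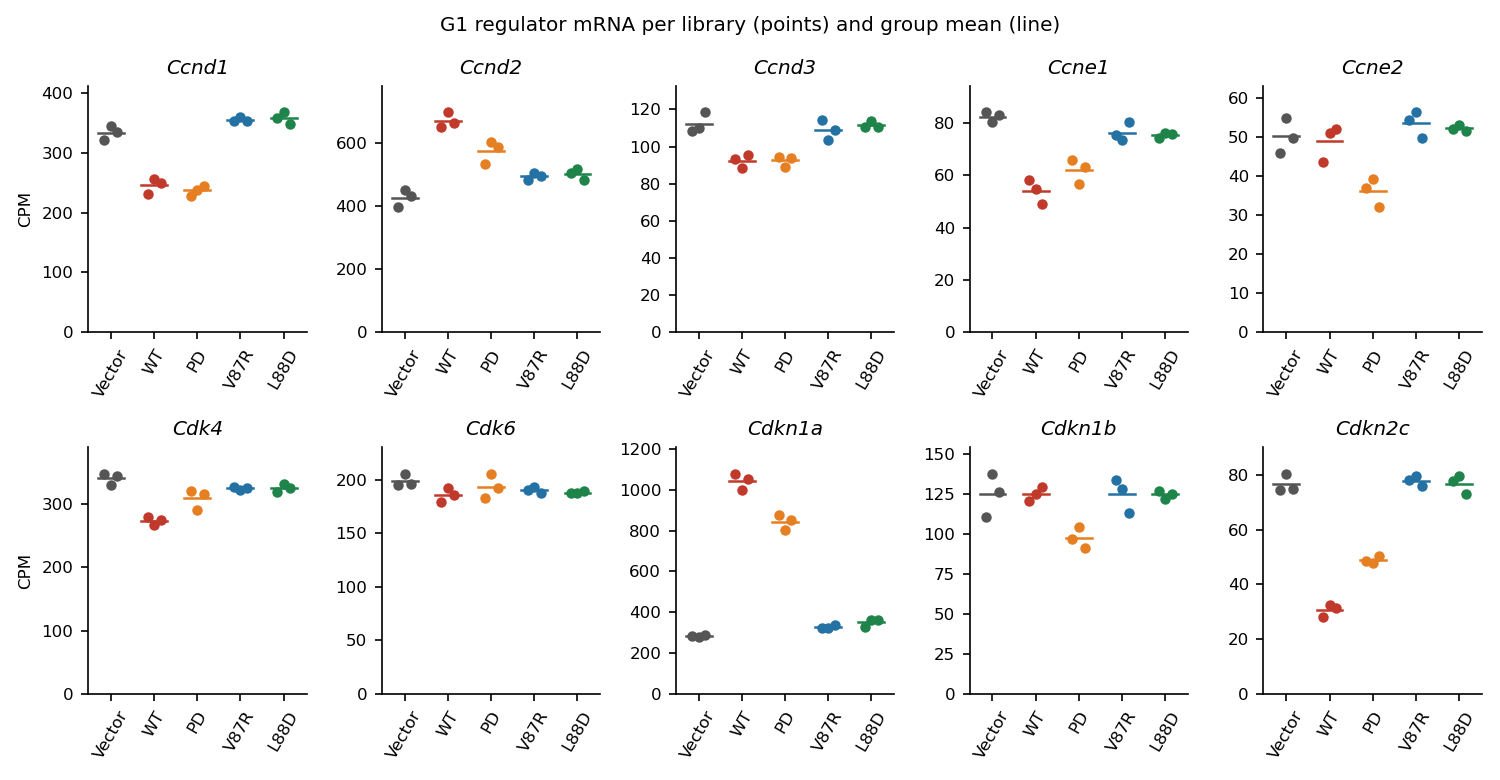
Level of each of the 10 mRNAs in CPM (vertical axis, from 0, a scale of its own per panel) in the 5 groups. Points are the 3 libraries of a group and lines their mean. Cdkn1a in Malt1_WT (998 to 1078) and Malt1_PD (803 to 875) sits far above the other 9 libraries (277 to 362), and Cdkn2c is lowest in Malt1_WT.

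The D cyclins moved in opposite directions. Ccnd1 (chromosome 7, 144929931 to 144939925, minus strand of GRCm38) measured 321, 345 and 335 CPM in Vector and 231, 256 and 250.1 CPM in Malt1_WT. It measured 228, 238 and 244 CPM in Malt1_PD, 353, 359 and 353 CPM in Malt1_V87R, and 358, 367 and 348 CPM in Malt1_L88D. All 6 libraries of Malt1_WT and Malt1_PD lay below all 9 others, with no overlap. The edgeR log2 change against Vector was -0.44 ± 0.04 (SE, adjusted p = 2.9e-10) in Malt1_WT and -0.49 ± 0.04 (adjusted p = 3.5e-11) in Malt1_PD. Malt1_PD and Malt1_WT overlapped and differed by -0.05, with a 95% interval of -0.14 to 0.03 (edgeR adjusted p = 0.38). Malt1_V87R and Malt1_L88D lay above all Vector libraries but did not pass the test, at 0.09 (edgeR adjusted p = 0.16) and 0.10 (0.079).

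Ccnd2, the second D cyclin (chromosome 6, 127125162 to 127152193, minus strand), ran the other way. Its levels were 397, 451 and 432 CPM in Vector, 649, 697 and 662 CPM in Malt1_WT, and 533, 605 and 586 CPM in Malt1_PD. In Malt1_V87R they were 483, 505 and 496 CPM, and in Malt1_L88D 506, 517 and 482 CPM. The order was Malt1_WT, Malt1_PD, then both point mutants, then Vector. Every neighbouring step in it passed the test except that between Malt1_L88D and Malt1_V87R, which overlapped (edgeR adjusted p = 0.96). The log2 change against Vector was 0.65 ± 0.05 in Malt1_WT (edgeR adjusted p = 3.8e-12) and 0.43 ± 0.05 in Malt1_PD (1.6e-08). It was 0.21 ± 0.05 in Malt1_V87R (edgeR adjusted p = 0.0022) and 0.23 ± 0.05 in Malt1_L88D (0.0007). Ccnd2 was thus raised in all 4 constructs, and Malt1_PD lay below Malt1_WT by a log2 difference of -0.22 ± 0.05 (edgeR adjusted p = 0.00091).

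Ccnd3 (chromosome 17, 47505051 to 47599691, plus strand) was the least abundant D cyclin per length. It averaged 112 ± 5.31 CPM in Vector, 92.4 ± 3.64 in Malt1_WT, 92.6 ± 2.88 in Malt1_PD, 109 ± 5.46 with V87R and 112 ± 1.82 with L88D. The fall was 1.22-fold in Malt1_WT (edgeR adjusted p = 1.2e-05) and 1.21-fold in Malt1_PD (1.7e-05), and these 6 libraries did not overlap with the rest. The exons of Ccnd3 share 361 bases with Bysl on the opposite strand, a gene with 1104 to 1710 counts. Those of Ccnd1 share 1100 bases with the gene LTO1, which had 128 to 233 counts. How the counting treated strand is not given in the sources used here, so reads from the shared bases may be split between the genes or left out.

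Scaled by exon length, the summed level of D cyclin mRNA was alike in Vector and Malt1_WT while its makeup differed. The sum was 129 ± 5.67 CPM per kb of exon in Vector and 134 ± 4.90 in Malt1_WT, a ratio of 1.04 with overlapping libraries (exact permutation test, two-sided, p = 0.4). The sum reached 122 ± 5.24 for Malt1_PD, 140.4 ± 1.19 for Malt1_V87R and 142 ± 4.10 for Malt1_L88D. The Malt1_V87R and Malt1_L88D sums were 1.09 and 1.10 times that of Vector and 1.15 and 1.17 times that of Malt1_PD, with no overlap (exact permutation p = 0.1 each, the smallest possible). Malt1_PD overlapped with Vector (exact permutation p = 0.3). Ccnd1 made up 54.9 ± 0.52% of the sum in Vector, 39.0 ± 0.73% in Malt1_WT and 41.3 ± 0.71% in Malt1_PD. Ccnd2 made up 35.1 ± 0.73%, 53.1 ± 0.67% and 50.1 ± 1.27% in the same groups, so Ccnd1 led in Vector and Ccnd2 in both others. In Malt1_V87R and Malt1_L88D, Ccnd1 led as in Vector, at 53.7 ± 0.17% and 53.5 ± 0.14%. Per kb, Ccnd2 divided by Ccnd1 gave 0.640 for Vector, 1.36 for Malt1_WT, 1.21 for Malt1_PD, 0.698 for Malt1_V87R and 0.701 for Malt1_L88D. Each construct's Ccnd1 share lay outside the Vector range, with an exact permutation p = 0.1, the smallest that 3 against 3 libraries allow. Which gene leads rests on the length scaling, since by CPM alone Ccnd1 held 38.2% in Vector and 24.4% in Malt1_WT. The likeness of the sums rests on it too. By CPM alone, Ccnd2 rose from 427 in Vector to 669 in Malt1_WT, more than Ccnd1 (333 to 246) and Ccnd3 (112 to 92.4) fell together. The length was that of all annotated exons of a gene, which can exceed that of the mRNA present.

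**Figure D2:**
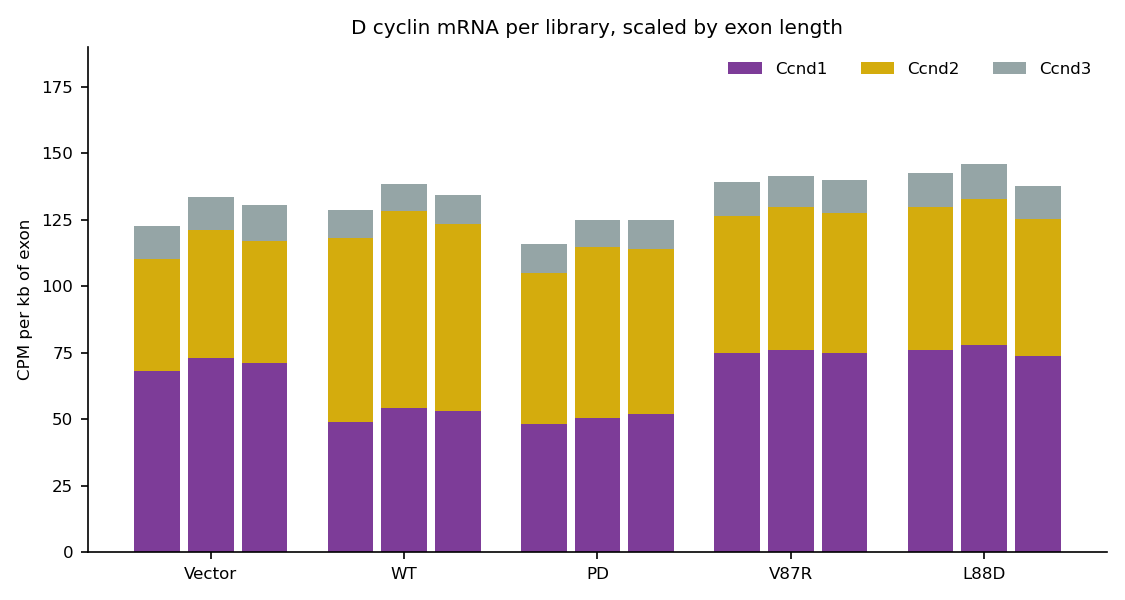
Stacked level of Ccnd1, Ccnd2 and Ccnd3 in CPM per kb of exon (vertical axis, from 0), 1 bar per library in the 5 groups. Bar heights are alike between Vector and Malt1_WT (means 129 and 134), while the Ccnd2 segment is larger than that of Ccnd1 in Malt1_WT and Malt1_PD and smaller in the other groups.

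Ccne1 fell in Malt1_WT and Malt1_PD, and Ccne2 in Malt1_PD alone. Ccne1 (chromosome 7, 38097984 to 38107534, minus strand), the activating partner of CDK2, measured 84.0, 80.3 and 83.0 CPM in Vector, 58.3, 54.6 and 49.0 CPM in Malt1_WT, and 65.8, 56.7 and 63.0 CPM in Malt1_PD. It measured 75.3, 73.5 and 80.2 CPM in Malt1_V87R and 74.4, 76.1 and 75.9 CPM in Malt1_L88D. Malt1_WT and Malt1_PD overlapped each other and lay below all other libraries. The fall against Vector was 1.53-fold in Malt1_WT (log2 -0.61 ± 0.06, edgeR adjusted p = 6.1e-10) and 1.33-fold in Malt1_PD (log2 -0.41 ± 0.06, 7.7e-07). Malt1_PD lay above Malt1_WT by 0.20 on the log2 scale (edgeR adjusted p = 0.017), a call that was lost with only those 6 libraries in the fit (0.074). It was also lost without Malt1_WT replicate 2 (0.0502) or 3 (0.19), and without Malt1_PD replicate 1 (0.13) or 3 (0.081).

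Ccne2 (chromosome 4, 11191351 to 11204779, plus strand), the second E cyclin, was lowest in Malt1_PD. Its levels were 46.0, 54.9 and 49.8 CPM in Vector, 43.7, 51.0 and 52.2 CPM in Malt1_WT, and 37.0, 39.4 and 32.2 CPM in Malt1_PD. Malt1_V87R and Malt1_L88D averaged 53.6 ± 3.36 and 52.3 ± 0.900 CPM. The 3 Malt1_PD libraries lay below all 12 others, and Malt1_PD passed the test against each of the other 4 groups. The log2 difference was -0.47 ± 0.08 against Vector (edgeR adjusted p = 1.5e-05) and -0.44 ± 0.08 against Malt1_WT (0.00016). Malt1_WT against Vector gave -0.03, with a 95% interval of -0.19 to 0.12. Ccne2 shares 609 exon bases with Ints8 on the opposite strand, which had 820 to 1395 counts.

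The region before the start of Ccne1 is shown because E cyclins are textbook targets of E2F. RefSeq (GRCm38.p6) places it at chr7:38107535-38107740, minus strand, 206 bases free of annotated exons. Capitals mark GC boxes (GGGCGG or its reverse complement CCGCCC), the words bound by Sp1 factors.

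Ccne1 promoter: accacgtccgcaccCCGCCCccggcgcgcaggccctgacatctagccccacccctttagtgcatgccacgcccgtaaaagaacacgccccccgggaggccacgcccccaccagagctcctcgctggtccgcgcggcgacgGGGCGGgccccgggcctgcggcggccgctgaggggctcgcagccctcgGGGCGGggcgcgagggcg

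The 8-base E2F words TTTGGCGC, TTTCCCGC, TTTGCCGC and TTTCGCGC, searched on both strands, were not in the 250 bases before the start of Ccne1 or of any of the 7 members with a RefSeq window. They were in 1.86% of 32851 such windows, and a GC box was in 32.7%.

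Of the kinases, Cdk4 fell in Malt1_WT and Malt1_PD, and Cdk6 did not pass the test. Cdk4 (chromosome 10, 127063534 to 127067920, plus strand) measured 347, 330.4 and 345 CPM in Vector, 279, 267 and 274 CPM in Malt1_WT, and 321, 291 and 316 CPM in Malt1_PD. It averaged 325 ± 2.39 CPM in Malt1_V87R and 325 ± 5.56 in Malt1_L88D. Malt1_WT was lowest, with no overlap with any other group. Its fall against Vector was 1.25-fold (log2 -0.32 ± 0.04, edgeR adjusted p = 4.2e-08). That of Malt1_PD was 1.10-fold (log2 -0.14 ± 0.04, edgeR adjusted p = 0.0034), and it was lost without Malt1_PD replicate 2 (0.057). Malt1_PD lay above Malt1_WT by 0.18 ± 0.04 on the log2 scale (edgeR adjusted p = 0.00098). Cdk4 shares 641 exon bases with Tspan31 on the opposite strand, which had 1033 to 1837 counts.

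Cdk6 (chromosome 5, 3341485 to 3531008, plus strand) encodes, like Cdk4, a kinase bound by D cyclins. It passed in none of the 10 pairwise comparisons with edgeR or DESeq2, and in 1 at an unadjusted p under 0.05 (edgeR, Malt1_WT against Vector). Group means ran from 186 ± 6.68 CPM in Malt1_WT to 199 ± 5.71 in Vector. The Malt1_WT difference from Vector was -0.10 on the log2 scale, with a 95% interval of -0.18 to -0.01 and an edgeR adjusted p = 0.054. With the replicate number as a block it passed, at -0.10 (edgeR adjusted p = 0.023). Per kb of exon, Cdk4 mRNA stood at 105 ± 2.81 CPM in Vector and Cdk6 mRNA at 14.2 ± 0.408 CPM.

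Cdkn1a (chromosome 17, 29090976 to 29100727, plus strand), which encodes the inhibitor p21, showed the largest change among the 10. It measured 285, 277 and 288 CPM in Vector, 1078, 998 and 1053 CPM in Malt1_WT, and 875, 803 and 853 CPM in Malt1_PD. In Malt1_V87R it measured 323, 324 and 335 CPM, and in Malt1_L88D 329, 362 and 362 CPM. Vector was lowest, the point mutants lay just above it, and Malt1_PD and Malt1_WT were far higher, with overlap only between the point mutants. The log2 change against Vector was 1.88 ± 0.04 in Malt1_WT (edgeR adjusted p = 2.7e-24) and 1.58 ± 0.04 in Malt1_PD (2.7e-22). Ranked by log2 change from the highest, the first placed Cdkn1a at 425 of 14571 genes. The point mutants rose 1.16-fold (Malt1_V87R, log2 0.21 ± 0.04, edgeR adjusted p = 0.0007) and 1.24-fold (Malt1_L88D, log2 0.31 ± 0.04, 2.7e-06). Malt1_PD lay below Malt1_WT by -0.31 ± 0.04 on the log2 scale (edgeR adjusted p = 1.6e-06). The deposited symbol AC167363.2, which shares 273 exon bases with Cdkn1a on the opposite strand, had 4 to 38 counts.

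Markers of other cell types also differed between the groups, not all in the same way. The summed level of 12 macrophage and dendritic cell genes ran from 29.2 to 31.0 CPM in Vector, 64.0 to 70.7 for Malt1_WT, 64.5 to 70.9 for Malt1_PD, 30.3 to 33.5 for Malt1_V87R and 33.2 to 54.6 for Malt1_L88D. Of the 7 markers tested, edgeR called 4 higher than Vector for Malt1_WT, 7 for Malt1_PD, 1 for Malt1_V87R and 4 for Malt1_L88D. The shares of all genes called higher were 27.2%, 22.8%, 7.01% and 8.96% in the same order. Cd14 averaged 8.04 CPM in Vector, 23.5 in Malt1_WT and 22.9 in Malt1_PD, and Cd68 rose from 12.1 CPM in Vector to 25.2 in Malt1_WT. Cd74 averaged 10.7 CPM in Malt1_WT and 6.43 in Malt1_PD, above its Vector level. Lyz2 and C1qb went another way, with means below Vector for Malt1_WT. Lyz2 had 5.66 CPM with Vector, 4.64 with Malt1_WT and 5.01 with Malt1_V87R. Its means were higher with Malt1_PD (14.4) and Malt1_L88D (13.8). The scarce C1qb had 0.07 CPM with Vector and 0.04 with Malt1_WT. It reached 0.54 with both Malt1_PD and Malt1_L88D, against 0.09 with Malt1_V87R. The markers Ptprc, C1qa, C1qc, Fcgr1 and Itgam did not pass the count filter and averaged at most 0.377 CPM in any group. In Malt1_WT against Vector, 2 of 6 tested fibroblast markers rose and 4 fell, 2 of 3 endothelial markers rose, and both epithelial markers fell. Of all genes, 27.2% rose and 27.7% fell in that comparison. The fibroblast list summed to 402 to 433 CPM in Vector, 394 to 402 in Malt1_WT and 444 to 466 in Malt1_PD. The part of these markers, and of any other cells, in the G1 results was not tested. In bulk RNA, fewer cells of a type and less RNA per cell cannot be told apart.

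RefSeq (GRCm38.p6) gives Cdkn1a a pair of starts, and both are shown because Cdkn1a had the largest change and is a known p53 target. Capitals in the upstream window, chr17:29090729-29090975, mark a p53 pair of decamers from 51 to 32 bases before the start. Capitals in the downstream window, chr17:29093519-29093768, mark GC boxes. Both are on the plus strand and free of annotated exons.

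Cdkn1a upstream start: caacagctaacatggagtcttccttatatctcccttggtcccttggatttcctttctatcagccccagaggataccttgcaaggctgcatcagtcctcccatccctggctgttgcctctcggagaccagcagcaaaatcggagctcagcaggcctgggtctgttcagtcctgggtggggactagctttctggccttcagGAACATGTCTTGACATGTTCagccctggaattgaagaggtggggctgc

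Cdkn1a downstream start: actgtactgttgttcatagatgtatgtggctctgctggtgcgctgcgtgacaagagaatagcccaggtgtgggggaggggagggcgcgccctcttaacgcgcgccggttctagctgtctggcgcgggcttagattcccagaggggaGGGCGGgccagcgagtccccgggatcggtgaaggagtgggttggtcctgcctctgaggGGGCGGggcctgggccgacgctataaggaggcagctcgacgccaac

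A p53 pair of decamers with at most 1 base outside the consensus was found in 25 of 32851 windows of 250 bases, or 0.0761%. The match describes letters only and shows no binding. Further words searched in the member windows, on both strands, were the CRE (TGACGTCA, in 1.55% of all windows), AP-1 (TGANTCA, 6.75%), kappaB (0.356%), CHR (TTTGAA, 16.0%) and CCAAT (33.8%) sites. The CCAAT word was in windows of Cdkn1b and Ccnd3, and the other 4 were in no member window.

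Cdkn1b (chromosome 6, 134920401 to 134925513, plus strand), which encodes the inhibitor p27, shared with Ccne2 the pattern of a fall in Malt1_PD alone. It measured 111, 137 and 126 CPM in Vector, 121, 125 and 129 CPM in Malt1_WT, and 96.4, 104 and 90.9 CPM in Malt1_PD. Malt1_V87R gave 134, 128 and 113 CPM and Malt1_L88D 127, 122 and 125 CPM. Means of 125 CPM in 4 groups stood against 97.1 ± 6.56 in Malt1_PD, whose libraries lay below all others. The log2 difference of Malt1_PD was -0.36 ± 0.07 against Vector (edgeR adjusted p = 0.00035) and -0.36 ± 0.07 against Malt1_WT (0.00099). Malt1_WT against Vector gave 0.00, with a 95% interval of -0.14 to 0.15. So of the CIP/KIP pair, Cdkn1a rose in all 4 constructs while Cdkn1b fell in Malt1_PD and passed in no other construct against Vector.

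Cdkn2c (chromosome 4, 109660876 to 109667189, minus strand), which encodes the INK4 inhibitor p18, fell furthest of the 10. It measured 74.4, 80.4 and 75.0 CPM in Vector, 28.0, 32.6 and 31.4 CPM in Malt1_WT, and 48.6, 47.8 and 50.5 CPM in Malt1_PD. It averaged 77.8 ± 1.98 CPM in Malt1_V87R and 76.8 ± 3.45 in Malt1_L88D, both overlapping with Vector. Malt1_WT, at 40.1% of Vector, and Malt1_PD, at 64.0%, overlapped neither each other nor any other group. The log2 change was -1.32 ± 0.06 in Malt1_WT (edgeR adjusted p = 1.9e-17) and -0.64 ± 0.05 in Malt1_PD (6.2e-11). Malt1_PD exceeded Malt1_WT by 0.67 ± 0.06 on the log2 scale (edgeR adjusted p = 1.3e-09). In Malt1_V87R and Malt1_L88D the log2 difference from Vector was 0.02 and 0.01, with 95% intervals of -0.08 to 0.13 and -0.10 to 0.11.

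The other INK4 genes differed from it in kind. Cdkn2a and Cdkn2b, neighbours on chromosome 4 (89274471 to 89294653 and 89306299 to 89311039, minus strand), had 0 counts in all 15 libraries. A count of 0 allows up to 3 counts, or 0.140 to 0.194 CPM depending on the library, by counting error only. Mtap, a nearby gene picked after its values were seen, had 2281 to 3557 counts. Cdkn2d, the remaining INK4 gene, fell in all 4 constructs, from 45.3 ± 1.38 CPM in Vector to 24.6 ± 1.48 in Malt1_WT and 32.3 ± 2.97 in Malt1_PD. It stood at 38.2 ± 1.41 CPM in Malt1_V87R (edgeR adjusted p = 0.0093) and 37.7 ± 2.13 in Malt1_L88D (0.0045).

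Cdkn1a mRNA was also set against Cdk4 and against the summed D cyclins, per kb of exon. The ratio of Cdkn1a to Cdk4 per kb was 0.760 for Vector, 3.49 for Malt1_WT, 2.49 for Malt1_PD, 0.922 for Malt1_V87R and 0.987 for Malt1_L88D. The ratio of Cdkn1a to summed D cyclins per kb was 0.619, 2.20, 1.95, 0.657 and 0.696 in the same order. Both ratios in Malt1_WT and Malt1_PD lay outside the Vector range, at the smallest exact permutation p = 0.1. In Malt1_V87R and Malt1_L88D the ratio to Cdk4 also lay above the Vector range (exact permutation p = 0.1 each). Their ratio to summed D cyclins overlapped with Vector (exact permutation p = 0.3 and 0.2).

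**Figure D3:**
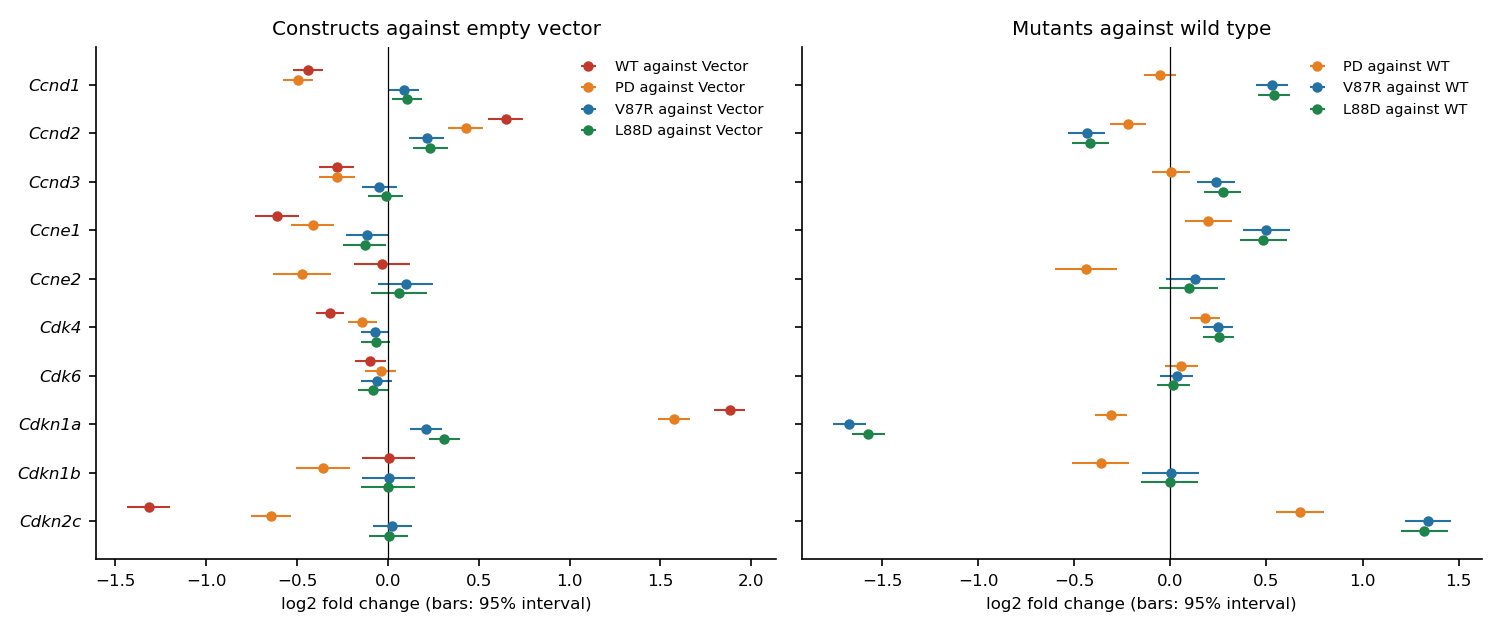
Log2 fold change (horizontal axis) of the 10 mRNAs for the 4 constructs against Vector (left) and the 3 mutants against Malt1_WT (right), from edgeR. Points are estimates, bars 95% intervals and the vertical line no change. On the left, Malt1_WT and Malt1_PD reach 1.88 and 1.58 for Cdkn1a, and on the right Malt1_V87R and Malt1_L88D lie far from Malt1_WT for Cdkn1a and Cdkn2c.

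Compared directly, Malt1_PD and Malt1_WT differed in 7 of 10 genes, 3 up and 4 down, where 23.3% of all genes passed, 12.6% upward and 10.7% downward. Upper-quartile scaling turned that split, from 1834 up and 1565 down to 1365 up and 1766 down. Ccne1, Cdk4 and Cdkn2c were higher in Malt1_PD, and Ccnd2, Ccne2, Cdkn1a and Cdkn1b lower. For Ccnd2, Ccne1, Cdk4, Cdkn1a and Cdkn2c this placed Malt1_PD between Malt1_WT and Vector. For Ccne2 and Cdkn1b it placed Malt1_PD below both, and the 3 that did not pass were Ccnd1, Ccnd3 and Cdk6. Ccne1 was called although its libraries overlapped between the groups.

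Each point mutant differed from Malt1_WT in 7 of 10 genes, 5 up and 2 down, where 48.3% (Malt1_V87R) and 45.1% (Malt1_L88D) of all genes passed. Of all genes 24.9% rose and 23.4% fell in Malt1_V87R, and 22.8% rose and 22.3% fell in Malt1_L88D. Ccnd1, Ccnd3, Ccne1, Cdk4 and Cdkn2c were higher and Ccnd2 and Cdkn1a lower in both. For Cdkn1a the log2 difference from Malt1_WT was -1.67 in Malt1_V87R and -1.57 in Malt1_L88D, and for Cdkn2c it was 1.34 and 1.32. Against Malt1_PD each had 6 up and 2 down, and Cdk4 and Cdk6 did not pass. Of all genes 41.5% passed in Malt1_V87R against Malt1_PD, 20.4% upward and 21.1% downward, and 41.4% in Malt1_L88D against Malt1_PD, 20% upward and 21.4% downward. Ccne2 exceeded Malt1_PD by 0.57 and 0.53 on the log2 scale, and Cdkn1b by 0.36 in both.

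The point mutants could not be told apart by these genes. Malt1_L88D against Malt1_V87R gave 0 of 10 calls with edgeR, and 0% of all genes passed. At an unadjusted p under 0.05, 1 of the 10 passed, namely Cdkn1a (log2 0.10, 95% interval 0.02 to 0.19, adjusted p = 0.78), and DESeq2 also called 0 of the 10. All 10 log2 differences lay between -0.04 and 0.10, and their 95% intervals between -0.19 and 0.19, so larger differences than that are outside the intervals.

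Over the 15 libraries, the genes whose log2 CPM followed Cdkn1a most closely by Pearson r, among 9832 genes compared, were Lif, Il1a and Itgb3, each at 0.997. Il1a, which encodes an interleukin, averaged 8.73 CPM in Vector and 404 in Malt1_WT, and Lif, a cytokine gene, 23.8 and 298 CPM. Ccnd1 was followed by Tra2a (0.989), Pspc1 (0.984) and Topbp1 (0.984), and Ccne1 by Gpx1 (0.984), Arpc1a (0.983) and Lsm6 (0.982). These values describe a pattern that 5 group means largely set, and carry no test.

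Of 78 other genes around the G1/S step in 7 lists, 75 passed the count filter. Against Vector, 14 rose and 49 fell in Malt1_WT (84.0% called, 54.9% of all genes), and 14 rose and 46 fell in Malt1_PD (80.0%, 44.8%). In Malt1_V87R 5 rose and 21 fell (34.7%, 11.7% of all genes), and in Malt1_L88D 7 rose and 27 fell (45.3%, 17.4%). The cyclins and kinase genes of S, G2 and M phase fell in Malt1_WT for 10 of 10, with a median log2 change of -1.56. Of all genes 27.7% fell there. Ccna2, the S-phase partner of CDK2, fell from 266 ± 8.16 CPM in Vector to 76.1 ± 2.81 in Malt1_WT and 104 ± 7.66 in Malt1_PD. Ccnb1, a cyclin of mitotic entry, fell from 210.3 ± 6.81 to 53.9 ± 3.51 and 104 ± 8.57 CPM. Plk1, a mitotic kinase, fell from 133 ± 12.4 to 28.4 ± 1.49 and 57.9 ± 3.56 CPM. In Malt1_PD all 10 also fell (median -0.95), and 9 of the 10 were higher in Malt1_PD than in Malt1_WT. The shares of all genes were 22% and 12.6%. In Malt1_V87R 9 fell and in Malt1_L88D 8, with medians of -0.26 in each, where 4.7% and 8.43% of all genes fell.

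Proliferation and replication genes fell for 13 of 13 in Malt1_WT (median -0.78) and 13 of 13 in Malt1_PD (median -0.83). Of all genes 27.7% and 22% fell in these comparisons with Vector. Mki67, a marker of cycling cells, fell from 226 ± 5.63 CPM in Vector to 50.3 ± 1.80 in Malt1_WT and 80.8 ± 4.77 in Malt1_PD. Mcm7, a part of the replicative helicase, fell from 279 ± 8.18 to 141 ± 3.57 and 149.8 ± 7.66 CPM. In Malt1_V87R 3 fell and 1 rose, beside 4.7% and 7.01% of all genes. In Malt1_L88D 6 fell, beside 8.43% of all genes. Of the Rb and E2F family, 11 of 13 fell and 2 rose in Malt1_WT (median -0.34), Rb1 and E2f5 rising. The shares of all genes were 27.7% and 27.2%. E2f8 and E2f7, which encode repressive E2F factors, fell from 125 ± 1.55 to 38.3 ± 2.98 CPM and from 28.9 ± 1.26 to 10.8 ± 1.14 CPM.

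Among other G1/S kinases and inhibitors, 6 of 8 fell in Malt1_WT (median -0.39) and 0 rose, where 27.7% of all genes fell. Cdk2, the kinase of cyclin E, fell from 78.9 ± 3.04 CPM in Vector to 58.3 ± 2.33 in Malt1_WT and 54.8 ± 2.24 in Malt1_PD, and stood at 79.2 ± 2.50 in Malt1_V87R. Cdc25a, a phosphatase that activates CDK2, fell from 61.4 ± 0.627 to 41.4 ± 2.07 CPM in Malt1_WT. Of the ubiquitin ligase genes that control G1 regulators, 8 of 12 fell in Malt1_WT and 0 rose (median -0.29), beside the same 27.7%. Cks1b, which helps target the Cdkn1b protein for degradation, fell from 189.8 ± 9.97 CPM to 93.7 ± 7.52.

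The list of p53 and its targets other than Cdkn1a held 11 tested genes, Trp53 among them. In Malt1_WT 7 of the 11 rose and 0 fell (median 0.25), where 27.2% of all genes rose, and in Malt1_PD 5 rose and 0 fell (median 0.14), where 22.8% rose. In Malt1_V87R 3 rose (Mdm2, Sesn2 and Gadd45a) and 2 fell (Bbc3 and Plk2), where 7.01% of all genes rose and 4.7% fell. In Malt1_L88D 4 rose (Mdm2, Sesn2, Gadd45a and Trp53inp1) and 3 fell (Bax, Bbc3 and Plk2). Of all genes 8.96% rose and 8.43% fell there. Sesn2, a stress-response gene, rose 3.49-fold in Malt1_WT and 3.07-fold in Malt1_PD, and Mdm2, which encodes the ligase that degrades p53, 2.20-fold and 1.67-fold. Plk2 rose 3.22-fold and 2.65-fold in these groups but fell 1.18-fold in Malt1_V87R (edgeR adjusted p = 0.0042) and 1.25-fold in Malt1_L88D (0.00015), where Cdkn1a rose. Trp53 itself did not pass against Vector in any construct. Among mitogen-induced transcription factors, 5 of 8 rose and 1 fell in Malt1_WT (median 0.76), beside 27.2% and 27.7% of all genes. Fos rose 3.70-fold and Junb 2.01-fold, and Etv5 fell 1.72-fold.

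**Figure D4:**
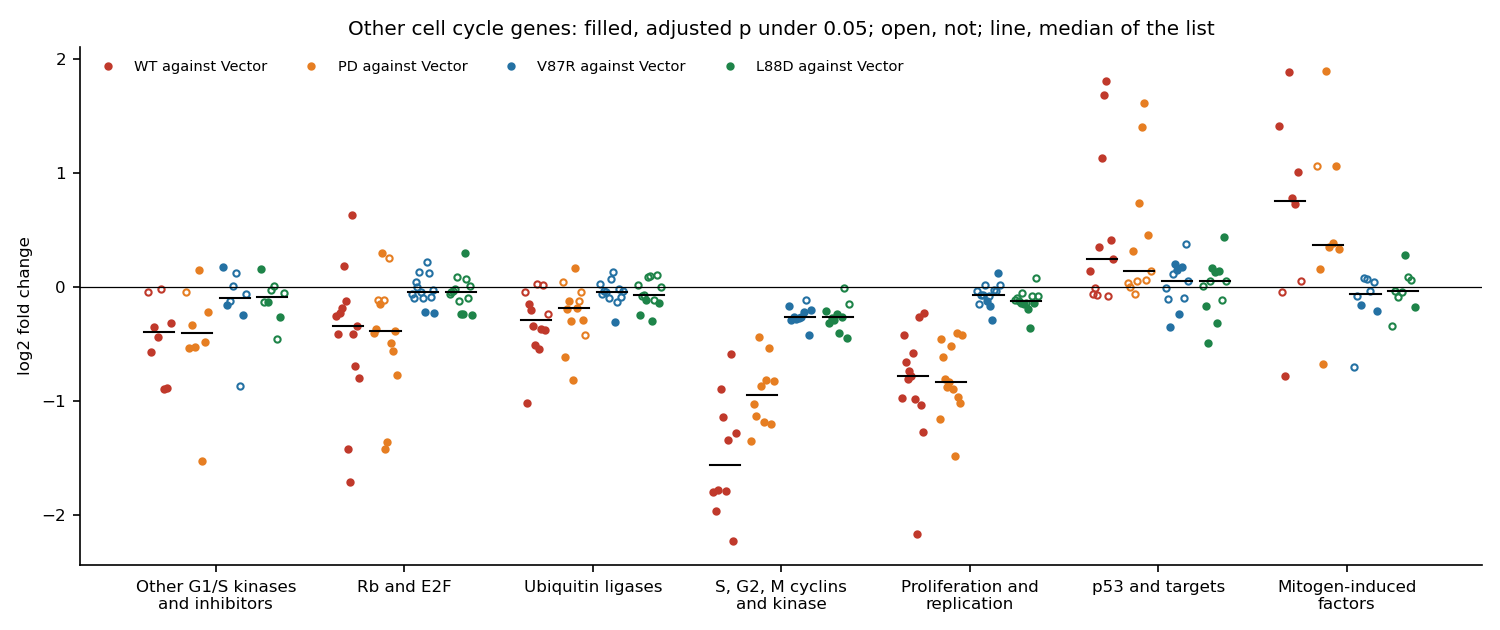
Log2 fold change against Vector (vertical axis) of the 75 tested genes of the 7 other lists, coloured by construct. Filled points passed an adjusted p of 0.05, open points did not, and lines are list medians. In Malt1_WT, S, G2 and M genes have a median of -1.56 and mitogen-induced factors one of 0.76, while the median of the S, G2 and M genes is -0.26 in Malt1_V87R and in Malt1_L88D.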

How the data were processed

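RNA sequencing of 15 E0771 libraries was analysed. Directional libraries from total RNA were sequenced with paired reads of 150 bp, per the labels. The deposited table holds raw counts by gene symbol. In the submitters' processing notes, featureCounts 1.6.3, STAR 2.7.3a and Trim Galore 0.6.0 are listed, with the build GRCm38.p6. Neither the annotation release nor the strand setting of the counting is given in the sources used here. Of 55571 rows, 22982 were 0 in every library. Columns were matched to groups by name, and those named for a cysteine substitution were taken as Malt1_PD, the only construct without columns of its own name.

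The 10 genes, the other lists and the tests were chosen with earlier results of these data known. In R 4.3.3, edgeR 4.0.16 filterByExpr left 14571 genes. A robust quasi-likelihood fit with 1 mean per group over 15 libraries (10 residual degrees of freedom) gave all 10 pairs of groups, two-sided, adjusted by Benjamini-Hochberg over genes with a threshold of 0.05. The common biological coefficient of variation was 4.61%. CPM used TMM factors of 0.973 to 1.015, and levels of different genes were compared per kb of GENCODE M21 exon on GRCm38. Shares of D cyclin mRNA were compared by exact two-sided permutation over libraries. The fit was also run on simulated counts, with 200 genes changed and the same spread for every gene. That setting is simpler than these data, so it does not check the scaling or error rate here. Alternatives were DESeq2 1.42.0, RLE and upper-quartile scaling, no low-count filter, a replicate block, a fit of only the 6 libraries compared, and leaving out each library.

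All 10 genes are named. From each other list, genes named come from the up to 4 with the largest absolute log2 change in Malt1_WT against Vector among those called with at least 5 CPM in the higher group. The 3 genes closest by Pearson r were taken for Ccnd1, Ccne1 and Cdkn1a, among genes with a mean of at least 5 CPM. Promoter windows of 250 bases came from RefSeq for 7 of 10 genes, trimmed of annotated exons for printing.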

Additional observations from a re-analysis of the deposited data

How the results depend on the processing

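No called fold change of the 10 genes changed sign under an alternative, and none was moved by more than 1.06-fold. In 20 member comparisons that were not called, all within 0.04 of 0 on the log2 scale, 50 alternative values took the other sign, the largest 0.07 in size. DESeq2, RLE scaling, upper-quartile scaling and the fit without a low-count filter changed none of the 100 member results. The fit of only the 6 libraries compared ended the Ccne1 call in Malt1_PD against Malt1_WT. With a library left out, 5 results lost a call, 4 for that Ccne1 comparison and 1 for Cdk4 in Malt1_PD against Vector, and 1 gained it, Ccnd1 in Malt1_L88D against Vector without Vector replicate 2 (0.13, edgeR adjusted p = 0.038). The cause was not tested. Left-out libraries gave 2 to 3 members called in Malt1_L88D against Vector, 6 to 7 in Malt1_PD against Malt1_WT and 8 to 9 in Malt1_PD against Vector.

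With the replicate block, 8 members were called in Malt1_WT against Vector, adding Cdk6, and 3 in Malt1_L88D against Vector, adding Ccnd1 (0.10, edgeR adjusted p = 0.028). No other member call changed with it. The labels give same-numbered libraries nothing in common but the number. Of 30 such pairs, 2 had correlated deviations over 0.1 (range -0.05 to 0.15), and 9 of 15 libraries correlated best with their own number. Over all genes, the block raised the calls most in Malt1_V87R against Vector, from 1021 up and 685 down to 1240 and 906. Whether the number marks a batch was not tested.

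Among the other lists, leaving out 1 library gave 16 to 25 genes called in Malt1_V87R against Vector (26 with all) and 22 to 31 in Malt1_L88D against Vector (34 with all). The fit of only 6 libraries called 1 gene in Malt1_L88D against Malt1_V87R (0 with all), where it called 25 of all genes, the fit without a low-count filter 5, and the fit without Malt1_L88D replicate 1 called 2. Without length scaling, the Ccnd1 share was 38.2% in Vector, 24.4% for Malt1_WT, 26.2% for Malt1_PD, 37.0% for Malt1_V87R and 36.9% for Malt1_L88D. Every member had at least 429 counts per library. Among the INK4 genes, Cdkn2a and Cdkn2b had 0 counts in every library, and the cause was not tested.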
